A study of Rattus norvegicus with 2 samples.

Results

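Capillary endothelial cells of rat origin were examined in skeletal muscle of 1 Sprague-Dawley (SD) rat and 1 rat-mouse chimera, measured by droplet single-cell RNA-seq (scRNA-seq). In this assay each droplet carries a barcode, and each captured transcript is counted once through a unique molecular identifier (UMI). A barcode was taken as a capillary endothelial cell, called a capillary member from here on, by its transcripts. It had to hold UMIs of at least 3 of Pecam1, Cdh5, Flt1, Kdr, Emcn, Gpihbp1 and Ptprb and none of the leukocyte gene Ptprc, the fibroblast gene Pdgfra or the lymphatic gene Prox1. It could hold UMIs of at most 1 of the arterial genes Sema3g, Gja4, Gja5 and Hey1, of at most 1 of the venous genes Vwf, Selp, Ackr1 and Lrg1, and of at most 1 of the proliferation genes Top2a, Mki67, Cdk1, Ube2c and Nusap1. In the chimera a barcode also had to have at most 20% of its UMIs on mouse genes. In all, 1620 of 23416 barcodes were capillary members. They were 552 of the 8356 rat barcodes that passed the filters in the chimera (6.61%, 95% interval 6.08 to 7.16) and 1068 of 8980 in the SD rat (11.9%, 11.2 to 12.6).

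The chimera grew from an SD rat morula injected with gene-edited Dmd mdx; Pax7-nGFP mouse induced pluripotent stem cells (iPSCs), and the SD rat received no mouse cells. Dmd mdx is a mouse dystrophin mutation and Pax7-nGFP a reporter of muscle stem cells. The cells described here are the rat cells of both animals, which carry neither. Skeletal muscle was pooled from the whole body, digested with collagenase, and sorted for viability by a dye, with no gate for endothelium. The age and sex of the animals are not given in the labels. Sequencing gave 13299 barcodes and 118872850 UMIs for the chimera, and 10117 barcodes and 70957559 UMIs for the SD rat. Each group was 1 library from 1 animal, so no difference below has a replicate check, no p-value is given, and animal, digestion, library and reference genome cannot be told apart. All intervals are exact 95% intervals and cover counting error only. Capillary members had a median of 3466 UMIs and 1469 genes in the chimera and of 2713.5 UMIs and 1313.5 genes in the SD rat.

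Capillary endothelium is the inner lining of the smallest vessels, where oxygen, fuel and water pass between blood and tissue. In skeletal muscle this lining is continuous and handles a large flow of fatty acids: GPIHBP1 holds lipoprotein lipase on the luminal face, and FABP4 binds the fatty acids that are released and taken up. Blood flow along the vessel wall is known to induce the transcription factor KLF2, and the VEGF receptors FLT1 and KDR, the tyrosine kinases of the Tie family and Notch signalling set how the cells grow and which vessel type they become.

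The defining genes chose the members, so their values are a description and no check of the label. Levels are UMIs per 1000000 rat UMIs (CPM), summed over all capillary members of a library. Cdh5, the junction cadherin of endothelium, stood at 878 CPM in the chimera against 1091 in the SD rat. Flt1, a VEGF receptor, stood at 1682 and 2499 CPM, a log2 ratio of chimera over SD rat of -0.57. Gpihbp1 stood at 800 and 656 CPM, and Emcn, a sialomucin of the capillary and venous surface, at 558 and 493 CPM. Pecam1, Kdr and Ptprb lay between 390 and 672 CPM. The rat barcodes with fewer than 3 of the 7 genes, called the other rat barcodes below, numbered 7468 and 7502 and held at most 26.0 CPM of any of them. They are a mixture of all other muscle cells, with medians of 8111 and 7172 UMIs.

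At the edge of the rule, 70 chimera members (12.7%) and 208 SD rat members (19.5%) held exactly 3 of the 7 genes, and 66 and 291 barcodes that met every other limit held 2 and stayed out. Barcodes with 3 genes had 2425 and 2398 CPM of Fabp4 in the chimera and the SD rat, against 814 and 950 CPM in those with 2. Tie1, an endothelial receptor outside the rule, was at 111 and 149 CPM with 3 genes and at 40.1 and 48.2 CPM with 2. The members nearest the edge thus carried lower levels of endothelial genes than those with all 7, which numbered 168 (30.4%) and 249 (23.3%). Of the barcodes with at least 3 genes, 888 in the chimera against 1478 in the SD rat, 128 and 224 were set aside for Ptprc, Pdgfra or Prox1. Of the 760 and 1254 left, capillary members made up 72.6% and 85.2%. The venous limit removed 148 and 131, the arterial limit 45 and 52, and the proliferation limit 47 and 16. The last are 6.18% (4.58 to 8.14) of the vascular barcodes in the chimera against 1.28% (0.731 to 2.06) in the SD rat. Finding UMIs of more than 1 of these genes depends on depth, which was greater in chimera members (medians of 3466 and 2713.5 UMIs). These shares were not read at equal depth.

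Mouse reads in rat cells touch every comparison of the libraries. Reads of the chimera were mapped to rat and mouse genes together and those of the SD rat to rat genes alone, so for the chimera alone a rat read from a conserved stretch could be lost to the mouse gene. Chimera members had a median of 14.4% of their UMIs on mouse genes (range 1.94 to 19.96%), and 47.5% of these 394737 UMIs fell on 1 ribosomal RNA gene, Rn18s-rs5. Without that gene the median was 7.55%. The limit of 20% cut through a continuous range: 70 members had 18 to 20%, and 65 barcodes that met every other condition had 20 to 24%. EGFP had 0 UMIs in the members. To account for the references, each ratio was read both on the rat gene alone and on a pair sum, which adds the UMIs of the mouse gene of the same name in the chimera, and a gene was counted as apart only when both readings passed 2-fold. The libraries shared 43 barcode sequences, of which 1 chimera member and 2 SD rat members were part, and no barcode was a member in both.

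RNA of other cells was present in the members and differed between the libraries. Myofibre markers, the genes of the contractile apparatus, had UMIs in every member of both libraries, with a median of 0.757% of a chimera member's UMIs (range 0.0263 to 28.8%) and 2.26% of an SD rat member's (0.177 to 38.4%). Fibroblast markers made up a median of 0.0795% and 0.214%, and 6.16% and 0.562% of members had none. Haemoglobin and the other erythroid markers had no UMI in 68.1% of chimera members and 9.83% of SD rat members, and their highest shares of one barcode were 87.7% and 81.3%. The 10 barcodes richest in erythroid markers held 99.1% of these UMIs in the chimera against 74.4% in the SD rat. Mural, immune, lymphatic, satellite and Schwann cell markers were at 0 in 46.1 to 95.8% of members. A stricter set, without barcodes that held several markers of another cell type, kept 437 chimera and 822 SD rat members and is given beside the results it moved most. It was chosen after the data had been seen.

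The genes that most set capillary members apart from the other rat barcodes, the defining genes left out, are described next. The members were chosen by endothelial genes, so a high level of other endothelial genes follows in part from the rule. Highest by the lower of the 2 libraries was Adgrl4 (ENSRNOG00000033940), an adhesion receptor of endothelium, at 541 CPM in chimera members and 607 in SD rat members against 2.05 and 4.58 in the other rat barcodes. Nos3, the endothelial nitric oxide synthase, was at 165 and 238 CPM against 0.88 and 1.91. Ca4 (ENSRNOG00000002916), a carbonic anhydrase anchored on the capillary surface, was at 402 and 498 CPM against 0.55 and 4.18. The background in the other rat barcodes was lower in the chimera for all 15 genes of this rule, so their log2 ratios were larger there: 9.51 in the chimera against 6.90 in the SD rat for Ca4, 8.04 and 7.05 for Adgrl4, and 7.56 and 6.96 for Nos3.

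**Figure D1:**
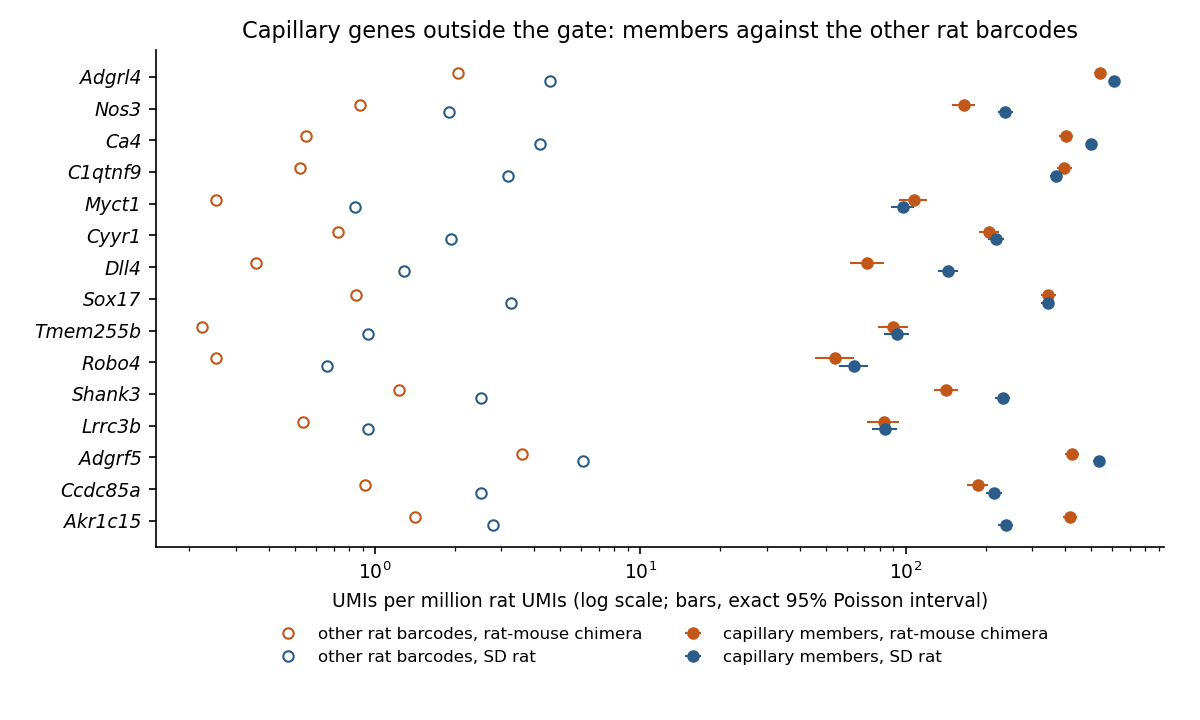
Level of the 15 genes, defining genes left out, with the highest ratio of capillary members (filled) over the other rat barcodes (open), in CPM on a log axis, for the rat-mouse chimera and the SD rat; bars are exact 95% Poisson intervals. In each library the filled points lie far to the right of the open ones, as for Adgrl4 at 541 and 607 CPM against 2.05 and 4.58.

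The rule named 12 further genes. C1qtnf9, a secreted relative of adiponectin, had log2 ratios over the other rat barcodes of 9.57 and 6.85, and Myct1 of 8.73 and 6.85. Dll4, the Notch ligand of arterial and sprouting endothelium, had 7.65 and 6.80, and Sox17, a transcription factor of the arterial side, had 8.67 and 6.71. Robo4, an endothelial guidance receptor, had 7.74 and 6.58, and Adgrf5, an adhesion receptor, had 6.89 and 6.45. The others were Cyyr1, Tmem255b, Shank3, Lrrc3b, Ccdc85a and Akr1c15. Ca4 and Akr1c15 had no mouse gene of the same name, so no pair reading exists for them. Between the libraries 12 of the 15 genes had log2 ratios of -0.52 to 0.14, and the exceptions were Shank3 at -0.71, Akr1c15, an aldo-keto reductase, at 417 CPM in the chimera against 238 in the SD rat, and Dll4 at 71.8 and 144 CPM. Over all 5923 genes tested, 1051 (17.7%) were at least 2-fold above the other rat barcodes in both libraries and 314 (5.30%) at least 2-fold below.

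The listed genes were then counted by function against the other rat barcodes, as a description for the same reason. Of those tested, 8 of 13 for fatty acid uptake, 18 of 26 endothelial transcription factors, 15 of 17 junction and caveola genes, 17 of 20 genes of the VEGF, Tie and BMP receptors, 10 of 13 of Notch and ephrin and 10 of 14 of vascular tone and coagulation were 2-fold above in both libraries. Basement membrane genes, which fibroblasts and fibres make too, were at 5 of 19. Of the fibroblast markers 10 of 12, and of the immune markers 4 of 5, were 2-fold below in both. None of the 6 MHC class I genes or of the 10 myofibre markers was 2-fold apart in both libraries.

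Chimera members were then compared with SD rat members to see how the host's own capillary cells in the chimera stood against those of a rat. Most genes lay close: the median log2 ratio over 5923 genes was -0.07 on rat genes and 0.04 on the pair sum. Higher in the chimera by at least 2-fold on both readings were 45 genes (0.760%), and lower were 111 (1.87%). With size factors from the median of ratios in place of totals these were 65 and 95. The highest with good support included Depp1, Rbp7 and Klf2, and the lowest were Hs6st3, Atp13a4 and Glis1. Also at least 2-fold beyond the ratio of the other rat barcodes between the libraries were 18 genes (0.304%) higher and 41 (0.692%) lower. For endothelial genes that ratio rests on background, which was lower in the chimera for most defining genes. A higher endothelial gene thus passes this limit more easily.

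**Figure D2:**
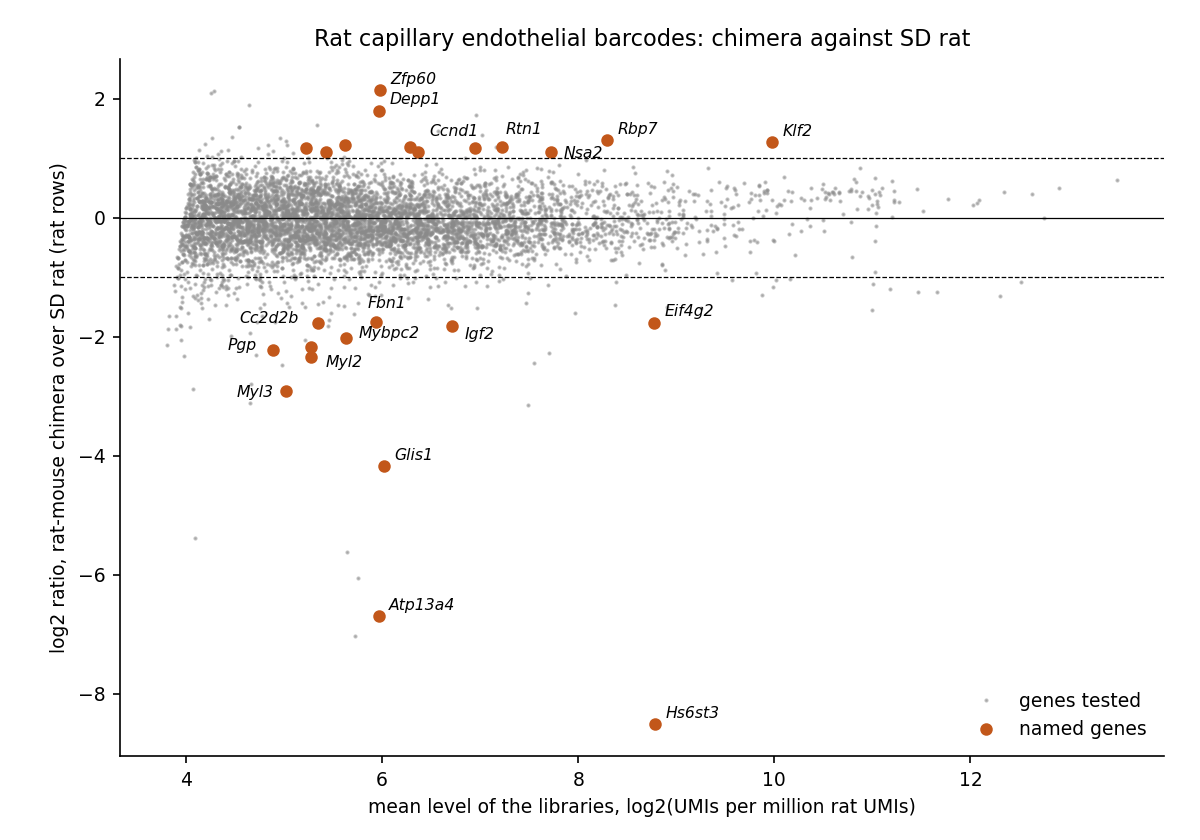
Log2 ratio of chimera over SD rat in capillary members (rat genes) against the mean level, log2 CPM; grey points are the 5923 genes tested, orange points the named genes, and dashed lines mark 2-fold. Klf2, at 1426 and 594 CPM, is the named higher gene with the largest level, and Hs6st3 and Atp13a4 lie lowest.

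Klf2 (ENSRNOG00000067705), the flow-induced transcription factor, was 1426 CPM (1380 to 1474) in the 552 chimera members and 594 CPM (570.0 to 619) in the 1068 SD rat members. That is a 2.40-fold higher level (2.28 to 2.53), a log2 ratio of 1.26 on rat genes and 1.27 on the pair sum. In the other rat barcodes Klf2 was at 496 and 456 CPM, a log2 ratio of 0.12. A Klf2 UMI was found in 70.7% of chimera and 49.2% of SD rat members. With every barcode thinned to 1000 UMIs, so that depth is equal, the shares were 51.2% (46.9 to 55.6, 527 barcodes) and 29.6% (26.7 to 32.6, 964 barcodes), against 21.0% and 17.9% in the other rat barcodes. Capillary cells of mouse origin in the same chimera, 737 barcodes chosen by the same rule on mouse genes, held Klf2 at 1550 CPM of mouse UMIs. Klf2 was thus higher in the chimera in members and close to level in the other rat barcodes.

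Rbp7 (ENSRNOG00000015850), a retinol-binding protein of the fatty acid-binding family found in capillary endothelium, was 447 CPM (422 to 474) in chimera members and 181 CPM (168 to 195) in SD rat members, 2.47-fold higher (2.24 to 2.72). The other rat barcodes held a background of 1.00 and 2.79 CPM, a log2 ratio of -1.48. The same barcodes had ratios of -1.67 for Cdh5, -2.04 for Gpihbp1, -1.38 for Flt1 and -1.29 for Ptprb. Emcn had -1.15 and Kdr -0.23 there, and Pecam1 alone of the defining genes was above 0, at 0.56. The background ratio of Rbp7 thus gives no direction for Rbp7 in other cells. After thinning, 27.7% of chimera and 13.5% of SD rat members had a Rbp7 UMI, against 0.22% and 0.38% of the other rat barcodes, which gives the background. Depp1 (ENSRNOG00000023465), a target of FOXO factors, was 97.5 CPM (85.6 to 111) and 28.1 CPM (23.0 to 33.9), 3.47-fold higher (2.76 to 4.40), with 0.52 and 0.76 CPM in the other rat barcodes. In venous barcodes of the same libraries Rbp7 was 336 and 150.3 CPM (330 and 108 UMIs) and Depp1 75.4 and 12.5 CPM (74 and 9 UMIs). In arterial barcodes Rbp7 was 286 and 162 CPM (70 and 49 UMIs) and Depp1 61.4 and 39.8 CPM (15 and 12 UMIs). Rbp7 was thus higher in the chimera in both, and Depp1 in venous barcodes, though no intervals were computed for these. The arterial UMIs of Depp1 are too few to give a direction. The mouse capillary barcodes held 370 CPM of Rbp7 and 128 CPM of Depp1. These are levels on mouse genes and so not on one scale with the rat cells, and their distance to either library cannot be read. All 3 genes had a mouse gene with at most 3.57% of the pair's UMIs, and kept their ratios in the stricter set (1.32 for Klf2, 1.24 for Rbp7 and 1.95 for Depp1). In the 29 chimera members with at most 10% mouse UMIs the log2 ratios were 0.19 for Klf2, -0.063 for Rbp7 and 0.50 for Depp1. Those 29 barcodes had 33.9% of their UMIs on erythroid markers, against 0.0531% in the other 523, with 7 barcodes above 50%, and the median log2 ratio over 4696 genes was -0.73 there. With the erythroid markers left out of the totals that median was -0.16, and the ratios were 0.76 (0.51 to 1.01) for Klf2, 0.51 (-0.03 to 1.00) for Rbp7 and 1.07 (-0.18 to 2.10) for Depp1, from 137, 35 and 8 UMIs. All 3 were thus above 0 and below their values over all members, and the part of the mouse share in this was not tested.

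The ratios were next read within classes of equal depth, since shallow and deep barcodes were mixed differently in the libraries. The classes began at 500, 1500, 3000 and 6000 UMIs, each ending below the next, and held 76, 153, 198 and 125 chimera members and 253, 326, 339 and 150 SD rat members. Klf2 had log2 ratios of 0.95 (0.55 to 1.34), 1.37, 1.23 and 1.59 from the shallowest to the deepest class. Depp1 had 1.07 (-0.18 to 2.27), 1.70, 2.09 and 2.22. Rbp7 had 0.47 (-0.39 to 1.28), 1.86, 1.45 and 1.02. All 3 genes were thus higher in the chimera in each class from 1500 UMIs upward, and in the shallowest class the intervals of Rbp7 and Depp1 reached below 0.

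**Figure D3:**
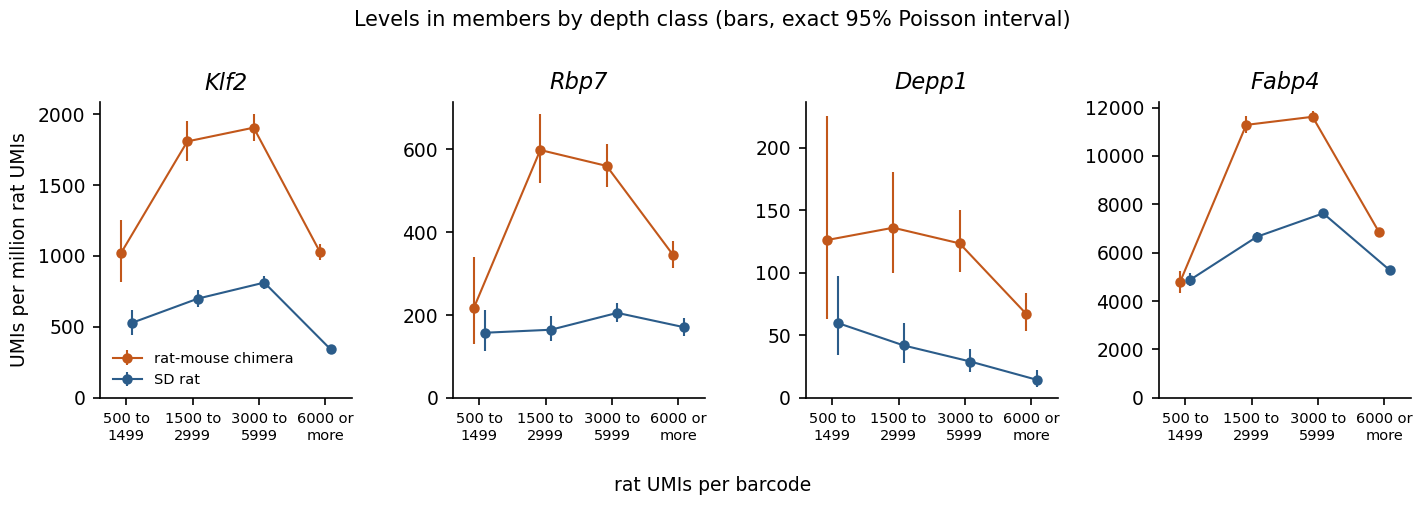
Level of Klf2, Rbp7, Depp1 and Fabp4 in capillary members by the number of rat UMIs of the barcode, in CPM, for the rat-mouse chimera (orange) and the SD rat (blue); bars are exact 95% Poisson intervals. The chimera lies above the SD rat in every class for Klf2, while for Fabp4 the libraries meet in the shallowest class.

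The other named genes higher in the chimera were of mixed kinds. Ccnd1, cyclin D1, was 171 and 76.4 CPM (log2 ratio 1.16) with a ratio of -0.06 in the other rat barcodes, and Rtn1, a reticulon of the endoplasmic reticulum, was 207 and 90.9 CPM (1.19) with 0.06. For both, the ratio in members was at least 2-fold beyond that of the other rat barcodes. Hopx, a homeodomain-only protein, was 109 and 47.5 CPM (1.19) with 0.69 in the other rat barcodes. Calhm5, of the calcium homeostasis modulator family, had 1.21 with 0.37. For Zfp60 (ENSRNOG00000018885), a zinc finger protein, 103 and 23.4 CPM gave the highest named ratio, 2.14, but the other rat barcodes had 2.16, so the libraries differed by it outside the members as well. The splicing and ribosome factors Lsm8, Phf5a and Nsa2 and the trafficking factor Trappc2l had 1.16, 1.10, 1.10 and 1.10, with 0.66, 0.60, 0.98 and 0.26 in the other rat barcodes. In the 29 members with at most 10% mouse UMIs, Calhm5, Rtn1 and Lsm8 had 4, 17 and 4 UMIs, too few to place their ratios on either side of 0: with erythroid markers left out of the totals these were -0.0069 (-1.91 to 1.39), 0.46 (-0.33 to 1.16) and 0.35 (-1.56 to 1.76).

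Most of the named genes lower in the chimera were lower in other cells too. Hs6st3 (ENSRNOG00000037886), a heparan sulphate sulphotransferase, was at 2.41 CPM from 6 UMIs in the chimera, and at 877 CPM from 3377 UMIs in the SD rat, where 79.5% of members had it. Atp13a4 (ENSRNOG00000001714), a P-type ATPase, had 0 UMIs in the chimera members and 481 in the SD rat members (125 CPM). Glis1, a zinc finger factor, was at 6.82 and 123 CPM. In the other rat barcodes these 3 genes had log2 ratios of -7.80, -10.75 and -4.22, so they set the libraries apart outside the members too. The same held for Eif4g2, a translation factor, at 199 and 676 CPM (-1.77, other rat barcodes -1.69), for Pgp, a phosphoglycolate phosphatase (-2.23 and -1.87), and for Igf2, the fetal growth factor, at 46.1 and 163 CPM (-1.82 and -2.08). The fibre genes Myl3 (-2.91), Myl2 (-2.33), Fabp3 (-2.17) and Mybpc2 (-2.02) were lower as well, with -1.22, -1.14, -1.73 and -1.69 in the other rat barcodes. Fbn1, fibrillin, had -1.76 with -0.73. Of the 12 named lower genes, Cc2d2b, at 18.5 and 63.1 CPM (-1.77), was the one with a ratio near 0 (0.02) in the other rat barcodes.

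**Figure D4:**
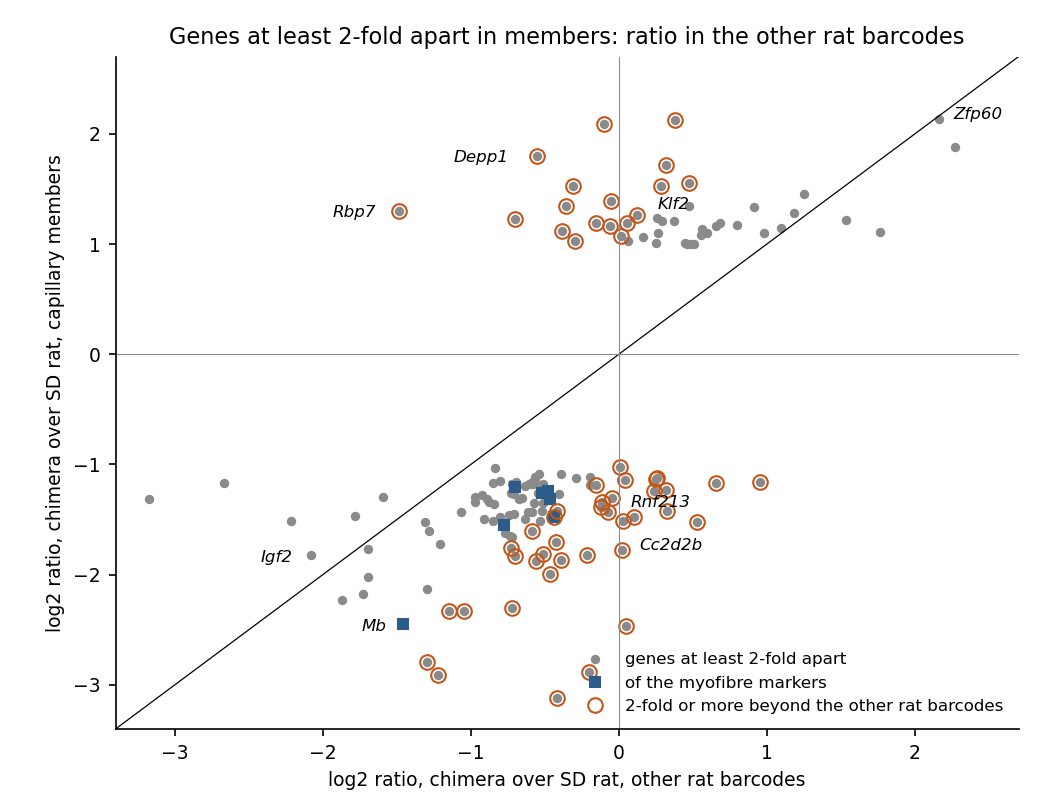
Log2 ratio of chimera over SD rat in capillary members (vertical) against the same ratio in the other rat barcodes (horizontal) for genes at least 2-fold apart in members; 149 genes are drawn and 7 lie below the axes, squares are myofibre markers and rings mark genes 2-fold or more beyond the other rat barcodes. Klf2, Rbp7 and Depp1 lie high with ratios of 0.12, -1.48 and -0.55 in the other rat barcodes. For Rbp7 and Depp1 the latter rest on background levels. Zfp60 lies on the diagonal.

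Myofibre markers formed a block among the lower genes. Of 10 myofibre markers tested, 7 were lower by at least 2-fold and none higher, with a median log2 ratio of -1.25 against -0.07 over all genes and -0.50 for the same markers in the other rat barcodes. Acta1, skeletal actin, was 3769 CPM in the chimera against 7983 in the SD rat, and Ckm, muscle creatine kinase, 1400 and 3224. Mb, myoglobin, was 57.8 and 316 CPM, a log2 ratio of -2.45. At least 1 of these markers had UMIs in every member of both libraries, and from which cells this RNA came was not tested. Within the depth classes Acta1 had log2 ratios of -1.25, -0.89, -0.81 and -1.27. The gap depended on how many defining genes a member held. With exactly 3, Acta1 was 2668 CPM in the chimera and 17164 CPM in the SD rat. With 6 it was 2453 and 6607 CPM, and with all 7 it was close to level, at 4181 and 4252 CPM. The other myofibre markers were not read in this way.

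Fibroblast markers split. Of 12 tested, 2 were higher and 3 lower, with a median of -0.55, and both higher genes, Tnmd (1.72) and Fmod (1.19) of tendon cells, were lower in the stricter set (-1.04 and -2.18), which leaves out barcodes with several fibroblast markers. Of 5 immune markers Lyz2, a lysozyme of myeloid cells, was higher (1.46), and of 7 mural markers Kcnj8, a pericyte channel, was higher (1.55). The defining immune gene Ptprc was at 0 in all members by the rule, as were Pdgfra and Prox1. The lymphatic markers Ccl21, Mmrn1, Reln and Pdpn were nonetheless found in some members, while 89.5% of chimera and 90.7% of SD rat members had none. At least 3 of these 4 were held by 25 chimera and 30 SD rat barcodes, and Ccl21 was 3712 and 1917 CPM. In the stricter set the list medians were -1.09 for the fibroblast markers (from -0.55), -0.56 for the mural markers (from 0.17) and -1.0 for the lymphatic markers (from 0.43), so the mural and lymphatic medians changed sign.

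The fatty acid genes of the capillary were compared next. Of 13 tested, Rbp7 was higher and Fabp3, the form of muscle fibres, lower, with a median of -0.03 (0.24 on the pair sum). Fabp4 is the main fatty acid-binding protein of these cells. It was 8978 CPM (8861 to 9097) in the chimera against 6373 CPM (6294 to 6453) in the SD rat, 1.41-fold higher. In the other rat barcodes, where most defining genes were also lower in the chimera, Fabp4 had a log2 ratio of -0.60. In the shallowest class its ratio was -0.04 (-0.20 to 0.12), and in the deeper classes 0.76, 0.61 and 0.38. Cav1, the caveola coat protein, was 1559 and 1101 CPM (0.50), and Tcf15, which with Meox2 drives fatty acid uptake genes in heart and muscle endothelium, was 232 and 163 CPM (0.51). Meox2 itself was 159 and 138 CPM (0.20). Sgk1, a serum- and glucocorticoid-induced kinase, was 212 and 128 CPM (0.73). Lpl, lipoprotein lipase, which parenchymal cells make and capillaries display, was 423 and 481 CPM (-0.19). Fabp4 and Cav1 lay below 0 in the 29 chimera members with at most 10% mouse UMIs, also with erythroid markers left out of the totals. Their log2 ratios there were -0.59 (-0.71 to -0.47) and -0.32 (-0.59 to -0.06), from 576 and 120 UMIs, against a median of -0.16 over all genes. The part of the mouse share in this was not tested.

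Aqp1, the water channel of continuous capillaries, depended on the reading. On rat genes it was 625 CPM in the chimera against 1401 in the SD rat, a log2 ratio of -1.16, but 45.1% of the pair's UMIs in chimera members lay on the mouse gene, and on the pair sum the ratio was -0.30. Klf4, a flow-induced relative of Klf2, had -0.80 on rat genes and 0.21 on the pair sum, with 50.4% on the mouse gene. Dll4 had -1.01 and -0.49, and Efnb2, an arterial ephrin, -0.96 and -0.47. Nr2f2, the transcription factor of venous identity, had 0.42 and 1.69 with 58.6% on the mouse gene, and Adm, adrenomedullin, a vasodilator peptide, had -1.07 and 1.11 with 78.0%. No direction can be read for Klf4 and Adm, whose readings differ in sign. Over all genes tested, 45.0% had more than 5% of the pair's UMIs on the mouse gene. Their log2 ratios had a median of -0.24, and those of the others 0.09.

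**Figure D5:**
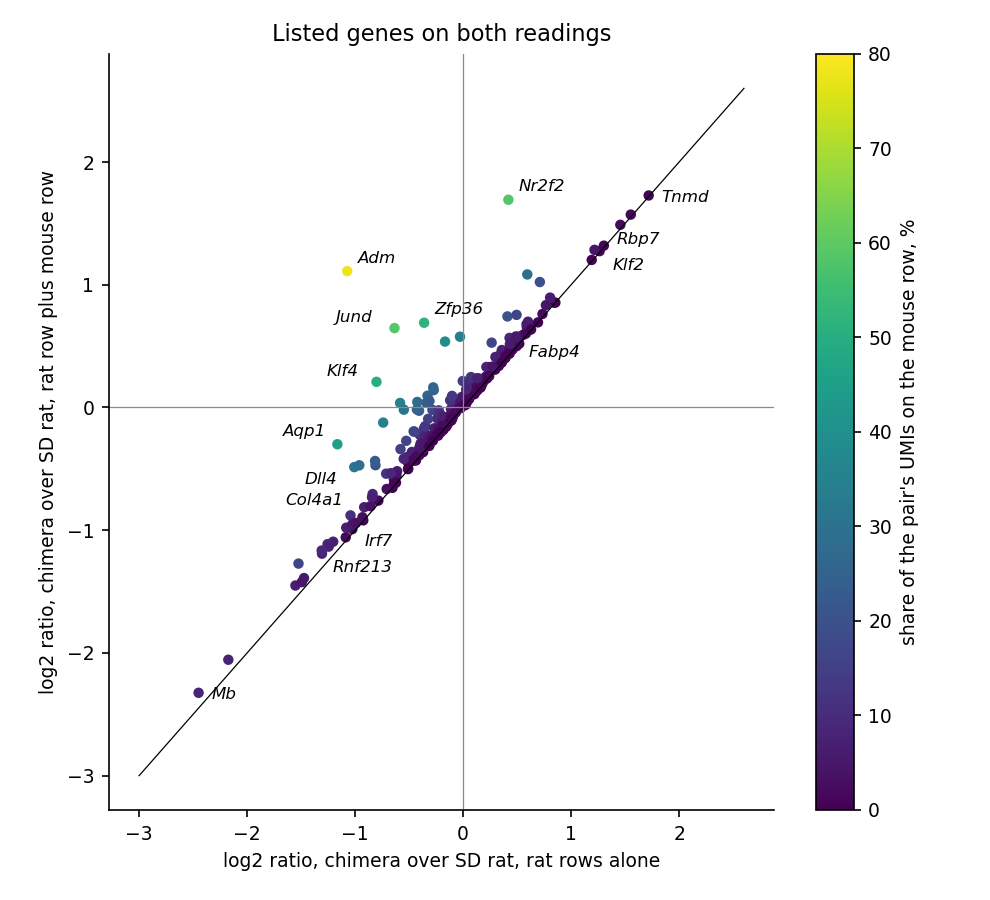
Log2 ratio of chimera over SD rat in capillary members on rat genes (horizontal) and on the pair sum of rat and mouse gene (vertical) for the listed genes tested, coloured by the share of the pair's UMIs on the mouse gene. Klf2, Rbp7 and Rnf213 lie on the diagonal, whereas Aqp1, Klf4, Jund, Zfp36, Nr2f2 and Adm, all with at least 45.1% on the mouse gene, lie above it.

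Among 26 endothelial transcription factors Klf2 alone was higher by 2-fold and none was lower, with a median of -0.21 (0.00 on the pair sum) against -0.07 (0.04) over all genes. Id1 and Id3, inhibitors of differentiation that BMP signals induce, were at 0.71 and 0.59, and Hhex, a homeobox factor, at 0.56. Erg and Fli1, ETS factors that keep endothelial identity, had -0.35 and 0.11, and Sox17 had 0.01. Mecom, a factor of arterial endothelium, had -0.35, Epas1, the hypoxia-inducible factor of endothelium, -0.47, and Foxo1, which holds capillary cells in quiescence, -0.47. The identity factors thus differed less between the libraries than Klf2.

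Junction, receptor and Notch genes lay near the median. None of 17 junction and caveola genes, of 20 receptor genes or of 13 Notch and ephrin genes was 2-fold apart, with medians of -0.10, -0.20 and -0.21. The highest ratio of the junction genes was that of Icam2, an adhesion molecule of the endothelial surface, 246 and 137 CPM (0.84), with 0.97 in the other rat barcodes. Among the receptors Nrp1, a VEGF co-receptor, had -0.52, Tie1 -0.37, Tek, the angiopoietin receptor, 0.01 and Eng, a TGF-beta co-receptor, 0.13. Hes1 and Nrarp, both targets of Notch, had 0.41 and 0.35, and the receptor Notch1 had -0.46.

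Basement membrane genes were mostly below 0, and none was 2-fold apart. Of 19 tested, 15 (78.9%) were below 0 on both readings, against 45.8% of all genes tested. Col4a1 and Col4a2, the chains of vascular type IV collagen, were 1447 and 2730 CPM (-0.92) and 489 and 747 CPM (-0.61). The laminin chains Lamb1 (-0.79) and Lama5 (-0.64) and the proteoglycan Agrn (-0.65) lay in the same direction, and Sparc (0.21) and Igfbp7 (0.11) did not. The list's median was -0.34 in members and -0.37 in the other rat barcodes, so the lower level was not confined to capillary cells.

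Genes of vascular tone and coagulation were below 0 on both readings in 9 of 14 (64.3%, against 45.8% of all genes tested), with a median of -0.35 (-0.19 on the pair sum) and none 2-fold apart. Nos3 and Thbd, thrombomodulin, both known as targets of KLF2, had -0.52 and -0.58, the opposite direction to Klf2. Procr, the protein C receptor, had -0.51, while Timp4, a metalloproteinase inhibitor, had 0.36.

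Interferon-induced genes ran both ways. Of 15 tested, Rnf213, a large ubiquitin ligase, was lower by 2-fold and none was higher, and the median was -0.11. On both readings 8 lay below 0 (53.3%, against 45.8% of all genes tested) and 7 above (46.7%, against 43.5%). Rnf213 was 33.7 CPM in the chimera against 83.4 in the SD rat (-1.31, pair sum -1.19, stricter set -1.24), and the other rat barcodes had -0.05. Irf7, an interferon regulatory factor, was 33.3 and 67.8 CPM (-1.03), just short of 2-fold on the pair sum (-0.99), and Ifit3 had -0.93. Ifitm2 and Ifitm3, membrane proteins against viral entry, had 0.46 and 0.29, and Irf1 had 0.29. On rat genes alone, Rsad2 was at 0.30-fold (0.16 to 0.54) and Mx2 at 0.33-fold (0.13 to 0.73) of the SD rat level. Oasl2 was at 0.50-fold (0.30 to 0.81) and Usp18 at 0.51-fold (0.25 to 0.99). Ifit2 was at 1.04-fold (0.87 to 1.24), Ifi27 at 1.08-fold (1.02 to 1.13) and Gbp5 at 1.01-fold (0.61 to 1.63). The MHC class I light chain B2m was 4799 and 3904 CPM (0.30), and the 6 class I genes tested had a median of 0.18. Of MHC class II, Cd74, the invariant chain, was the 1 gene tested: 208 and 89.6 CPM (1.22), detected in 16.1% and 7.30% of members, with 1.54 in the other rat barcodes and 3.68 in the stricter set. Other class II genes were read on rat genes alone. RT1-Da was 2.29-fold, RT1-Bb 2.76-fold, RT1-DMa 2.38-fold, RT1-Ba 1.76-fold and RT1-Db1 1.46-fold higher in the chimera. For RT1-Da and RT1-Bb the other rat barcodes had log2 ratios of 1.54 and 1.49.

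Immediate early and stress genes, a set known to be induced by tissue digestion, were above 0 on both readings in 12 of 18 (66.7%, against 43.5% of all genes tested) and below in 1, with a median of 0.21 and none 2-fold apart. Fos and Egr1 both had 0.59, Nr4a1 0.81, Ier2 0.49 and Hspb1, a small heat shock protein, 0.39. Jund and Zfp36 had -0.64 and -0.36 on rat genes and 0.65 and 0.69 on the pair sum. The other rat barcodes had a median of 0.14 for these genes, with 0.51 for Fos and 0.63 for Egr1. Klf2, at 1.26, lay above the highest of them, 0.81, and the part of digestion in its ratio was not tested. Of 14 glycolysis genes none was 2-fold apart (median -0.18), with Tpi1 at -0.71 and Eno1 at 0.52. Neither was any of 13 adhesion genes (-0.03), of 8 lipid synthesis genes (-0.05) or of 5 cell cycle genes outside the rule (0.16). The same holds for 10 further arterial genes (-0.35), 10 further venous genes (0.10, and -0.08 in the stricter set), 2 erythroid markers with a pair reading (0.38), 3 lymphatic markers (0.43, and -1.0 in the stricter set) and 1 satellite cell marker (-0.10), and no Schwann cell marker reached 100 UMIs with a pair reading. Icam1, an adhesion molecule for leukocytes, was at 0.77 and at 0.41 in the stricter set.

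Members were next split by the single arterial or venous gene that the rule allows, which describes the members and is no test of zonation. In the chimera 59 members (10.7%) had 1 arterial gene alone, 215 (38.9%) 1 venous gene alone, 84 (15.2%) 1 of each and 194 (35.1%) neither. In the SD rat these were 101 (9.46%), 329 (30.8%), 69 (6.46%) and 569 (53.3%). Members with neither had the lowest median depth, 2383.5 and 2034 UMIs, so the split follows depth as well. Most venous detections came from Lrg1, found in 47.1% of chimera and 28.5% of SD rat members, at 336 and 229 CPM.

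The listed genes with at least 20 UMIs in each library were then compared between members with 1 arterial and members with 1 venous gene. Of 10 further arterial genes, 6 were higher on the arterial side in both libraries, 1 was lower in both and 3 lay opposite ways. The 4 whose intervals stayed above 0 in both were Fbln5, an elastic fibre protein (log2 ratios of 1.26 for the chimera and 1.24 for the SD rat), Jag1, a Notch ligand (1.02 and 1.31), Cxcl12, a chemokine (0.70 and 0.74), and Mgp, matrix Gla protein (1.27 and 0.37). Mgp was not lower in members with neither gene, at 1523 CPM in the chimera and 2497 CPM in the SD rat. With 1 arterial gene it was 1465 and 828 CPM, so its ratio does not mark an arterial side. The 1 arterial gene that was lower in both libraries was Clu, clusterin (-0.63 and -0.31). Of 10 further venous genes, 6 were lower on the arterial side in both libraries and none higher, while 4 lay opposite ways, as Nr2f2 did (0.70 and -0.67). The 2 whose intervals stayed below 0 in both were Nrp2, a co-receptor of veins and lymphatics (-0.58 and -1.06), and Icam1 (-0.72 and -1.13). Of 26 transcription factors 12 were higher on the arterial side in both and 7 lower, with Epas1 (1.18 and 0.58) and Mecom (0.93 and 0.68) among the former, and of 13 fatty acid genes 3 were higher and 4 lower. Aqp1 was 443 CPM with 1 arterial gene and 793 CPM with 1 venous gene in the chimera, and 745 and 1524 CPM in the SD rat (-0.84 and -1.03). Eln, elastin, had 1.15 for the chimera and -0.71 for the SD rat. Klf2 had log2 ratios along the split of 0.05 (-0.11 to 0.21) and 0.15 (-0.06 to 0.36), and was higher in the chimera on both sides of it, with 1537 against 629 CPM on the arterial side and 1482 against 566 CPM on the venous side.

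Arterial barcodes, with at least 2 arterial genes and otherwise as the members, numbered 26 and 40, and venous barcodes 121 and 119. Aqp1 was 184 and 434 CPM in arterial barcodes, 625 and 1401 in capillary members and 969 and 1795 in venous barcodes, the same order in both libraries. Fabp4 followed the same order in the chimera, at 6465, 8978 and 11118 CPM, and in the SD rat the arterial level, 6930, was not below the capillary level of 6373. Klf2 in the venous barcodes was 536 and 434 CPM, so the distance between the libraries was smaller there than in capillary members. It was 1293 and 434 CPM in arterial barcodes.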

How the data were processed

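The authors deposited raw UMI counts per gene and barcode from Cell Ranger 7.1.0, not normalized. Per the file headers and the submitters' processing notes, the chimera was mapped to mRatBN7.2 and GRCm39 together (23373 rat and 25906 mouse genes plus EGFP) and the SD rat to the same rat genes alone. No genome coordinates were used. Barcodes with at least 500 UMIs, 200 genes and at most 20% mitochondrial UMIs on rat genes were kept. Mouse capillary barcodes had at least 80% mouse UMIs. Doublets were limited only through the membership rule, which sets no limit on myofibre, mural, erythroid or satellite cell markers. Several markers of another cell type were held by 115 chimera members (20.8%) and 246 SD rat members (23.0%). Whether these were doublets was not tested. Scrublet (scanpy 1.11.5) called 0 chimera barcodes, so it did not work there, and 168 of 8980 SD rat barcodes (1.87%), 22 of them members (2.06%).

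Counts were summed over members and scaled to UMIs per 1000000 rat UMIs (CPM) (Python 3.11.15, scipy 1.17.1). Intervals are exact at 95%: Poisson for sums, Clopper-Pearson for shares and conditional binomial for log2 ratios. A count of 0 was set to 3 UMIs for a ratio. Genes with at least 100 UMIs over both libraries and a mouse gene of the same name were tested. The scripts were tested on simulated data. Named are the 12 highest and 12 lowest genes among those 2-fold apart with at least 200 UMIs, found in at least 5% of members where higher and with at most 10% of UMIs in 1 barcode, the 15 genes highest over the other rat barcodes found in at least 10% of members of both libraries, and genes of 25 lists (376 genes, of which 32 had no rat gene of that name and were not analysed here). The rule, members and lists were chosen with earlier results of these data known.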

Additional observations from a re-analysis of the deposited data

Results flagged for a closer look

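Cd79a, a chain of the B cell receptor and one of the immune markers, lay on opposite sides of the other rat barcodes in the libraries: the log2 ratio of members over the other rat barcodes was -0.52 in the chimera against 0.81 in the SD rat. The difference was not tested. Of 5923 genes, 16 (0.270%) lay at least 0.5 above in one library and at least 0.5 below in the other, and Cd79a was the 1 gene of the lists among them. Members held 26.9 and 16.6 CPM of Cd79a, from 67 and 64 UMIs, a 1.62-fold higher level in the chimera (1.13 to 2.31). The other rat barcodes were thus also higher in the chimera, and by more than the members were.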

How the results depend on the processing

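The share of capillary members, 6.61% in the chimera against 11.9% in the SD rat, was 5.77% and 9.58% with at least 4 of the 7 defining genes, 5.80% and 10.3% in barcodes thinned to 1000 UMIs, 5.23% and 9.15% without barcodes that held several markers of another cell type, and 7.38% and 12.7% without Lrg1 in the venous limit. These last 2 alternatives were chosen after the data had been seen. In the chimera it was 0.987% (29 of 2939 barcodes) at a mouse share of at most 10% and 7.32% at 30%. The 45 genes higher in the chimera became 84 on the pair sum alone, 69 with the mean of per-barcode CPM, 15 after thinning, 10 with at least 500 UMIs per gene and 223 with at least 20. The 111 lower genes became 41 among the 3235 genes with under 5% on the mouse gene, 66 without barcodes with several markers of another cell type, 29 after thinning, 23 with at least 500 UMIs per gene, 352 with at least 20 and 1328 at a mouse share of at most 10%. The counts with fewer genes tested follow in part from that number, and the cause of the other changes was not tested. The 29 barcodes at a mouse share of at most 10% held 33.9% erythroid UMIs, which lowered the ratios of most genes: Rbp7 (-0.063), Calhm5 (-0.58), Rtn1 (-0.11) and Lsm8 (-0.22) reversed. With erythroid markers out of the totals, also chosen after the data had been seen, 195 genes were higher and 495 lower there, Rbp7, Rtn1 and Lsm8 were above 0 and Calhm5 was at -0.0069. Of the values of named genes under all alternatives, 301 stayed within their interval, 51 moved beyond it in the same direction and 5 reversed, Calhm5 under both. Of the list medians 260 stayed and 28 moved. No paired analysis was possible because each group is 1 library, and for the same reason none could be left out.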

Other observations

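A few genes outside the lists that were 2-fold apart in members and at least 2-fold beyond the other rat barcodes are named after their values were seen. Ifi44l was 16.9 and 37.7 CPM in chimera and SD rat members (log2 ratio -1.16, other rat barcodes 0.95), Rtp4 had -1.34 with -0.11, and Mov10 had -1.52 with 0.53. The potassium channel Kcnt2 was 59.4 and 130.9 CPM (-1.14) with 0.04. Among the higher genes, Sox15, a SOX transcription factor, was found in 13.2% and 4.03% of members (1.53, other rat barcodes -0.31), and Lnx1, a ubiquitin ligase, in 10.7% and 4.96% (1.02, -0.29). Mast cell genes were among the lower ones from very few barcodes: Cma1 had 4 and 408 UMIs, 297 of them in 1 barcode, and Cpa3 had 5 and 377, with 268 in 1 barcode.

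A further 482 rat genes had at least 100 UMIs and no mouse gene of the same name. Of these 9 were at least 2-fold higher in the chimera members and 20 lower. H19, a fetal noncoding RNA beside Igf2, was 389 and 822 CPM (-1.08), with -0.53 in the other rat barcodes. Ptma, prothymosin alpha, was 579 and 1235 CPM (-1.09), with -1.42. Ly6c, of a family of similar copies between which reads may be split, was higher (1.01), with 2.14 in the other rat barcodes. The gene listed as AABR07046956.1 had 0 UMIs in chimera members and 3825 in SD rat members. Its log2 ratio was -14.43 in the other rat barcodes, so the libraries differed by it outside the members as well.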
